A study of Mus musculus with 8 samples.

Results

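The mitochondrial solute carriers of the SLC25 family, together with the uncoupling proteins, were examined in white quadriceps of mice with and without the thioesterase gene Acot2 in muscle. Members were the rows of the deposited table named Slc25 (other than Slc25a20) or Ucp1 to Ucp3. Of 50 such rows, 40 reached a minimum of 10 normalized reads in 4 or more of 8 libraries, as did 13638 genes in all, and the counts below are over these 40. A normalized read is a read count divided by the authors' factor for its library. The animals were chow-fed males aged 11 to 14 weeks, and 8 libraries were made from 8 animals. The 4 control animals, here Loxp 1 to 4, had the genotype Loxp/Loxp. The other 4, here Cre 1 to 4, were labelled CKM Cre, with Acot2 knocked out in muscle, so Cre expression is placed under the promoter of the muscle creatine kinase gene (Ckm). The control genotype lists no Cre, so the recombinase and the loss of Acot2 cannot be told apart. The sources used here do not name the strain. The p-values below set the difference between the groups against the spread between these animals within groups, with variances moderated over all genes tested.

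The inner mitochondrial membrane is closed to most metabolites, and SLC25 carriers move them across it, usually by exchanging a molecule inside for another outside. ADP/ATP carriers send ATP to the cytosol, the phosphate carrier supplies ATP synthase, and the aspartate/glutamate and oxoglutarate/malate carriers form the malate-aspartate shuttle, which brings reducing power from the cytosol into mitochondria. Uncoupling proteins belong to the same family. Ucp1 makes heat in brown fat by letting protons leak back, and Ucp3 is the skeletal muscle form, whose transport role is less settled. Acot2 cleaves acyl-CoA inside mitochondria, which frees fatty acid and coenzyme A.

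The libraries held 30415400 to 48834300 reads recovered from the deposited values, and 1 read was worth 0.708 to 1.22 normalized reads. Acot2 was at 213 ± 45.9 normalized reads in Loxp and 47.3 ± 5.03 in Cre (mean ± SD, n = 4 each), and the log2 difference was -2.13 (limma, adjusted p = 0.000962). The tissue label was checked on the fast glycolytic fibre gene Myh4, which was at 3085590 ± 274588 normalized reads in Loxp and 2850620 ± 251907 in Cre. Some libraries stood apart in markers of other cells. Summed over 12 adipocyte genes, Loxp 2 held 24960 normalized reads and Loxp 3 held 10931, against 2918 to 4636 in the other 6 libraries. Summed over 10 slow fibre genes, Cre 4 held 20851 and Cre 3 held 8876, against 2454 to 3750 in the others. Myh2, the myosin of oxidative fast fibres, was at 50366 to 73690 in Loxp 3, Loxp 4, Cre 3 and Cre 4, and at 797 to 7832 in the others. In whole muscle, fewer cells of a type and less RNA per cell cannot be told apart.

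Promoters are shown for 6 carriers on which the results turn: Slc25a4, which dominated the family; the pair Slc25a12 and Slc25a13, which carry the same substrates at very different levels; Slc25a1 and Slc25a10, which had the smallest p-values between the groups; and Slc25a34, which varied most between animals. Each sequence is the 250 bases before the RefSeq start of the gene, on build GRCm38.p6, read 5′ to 3′ on the gene's strand. Capitals mark matches, on either strand, to the motifs searched.
Slc25a4, chr8:46211063-46211312, minus strand: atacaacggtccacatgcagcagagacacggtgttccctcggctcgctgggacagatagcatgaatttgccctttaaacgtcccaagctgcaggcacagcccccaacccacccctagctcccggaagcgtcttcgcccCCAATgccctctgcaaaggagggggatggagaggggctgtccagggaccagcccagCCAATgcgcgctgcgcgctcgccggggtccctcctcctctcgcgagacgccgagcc
Slc25a12, chr2:71367756-71368005, minus strand: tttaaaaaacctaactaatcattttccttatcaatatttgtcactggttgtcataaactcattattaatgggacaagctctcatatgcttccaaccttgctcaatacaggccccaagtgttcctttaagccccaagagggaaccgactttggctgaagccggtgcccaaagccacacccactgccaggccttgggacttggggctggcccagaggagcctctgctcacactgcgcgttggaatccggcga
Slc25a13, chr6:6217174-6217423, minus strand: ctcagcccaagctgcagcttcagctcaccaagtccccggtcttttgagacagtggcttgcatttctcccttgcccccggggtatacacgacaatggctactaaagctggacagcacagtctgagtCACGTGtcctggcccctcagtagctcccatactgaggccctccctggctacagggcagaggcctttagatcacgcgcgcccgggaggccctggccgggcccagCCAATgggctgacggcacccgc
Slc25a1, chr16:17928220-17928469, minus strand: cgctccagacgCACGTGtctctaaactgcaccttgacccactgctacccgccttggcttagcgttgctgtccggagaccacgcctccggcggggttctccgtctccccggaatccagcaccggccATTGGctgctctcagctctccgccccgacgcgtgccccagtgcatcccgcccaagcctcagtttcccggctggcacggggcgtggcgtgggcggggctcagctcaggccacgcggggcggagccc
Slc25a10, chr11:120491587-120491836, plus strand: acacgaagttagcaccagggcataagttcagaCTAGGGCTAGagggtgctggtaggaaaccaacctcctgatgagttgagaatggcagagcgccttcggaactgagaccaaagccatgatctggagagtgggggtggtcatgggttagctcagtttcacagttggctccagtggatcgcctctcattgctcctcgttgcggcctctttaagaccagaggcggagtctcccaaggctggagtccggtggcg
Slc25a34, chr4:141623835-141624084, minus strand: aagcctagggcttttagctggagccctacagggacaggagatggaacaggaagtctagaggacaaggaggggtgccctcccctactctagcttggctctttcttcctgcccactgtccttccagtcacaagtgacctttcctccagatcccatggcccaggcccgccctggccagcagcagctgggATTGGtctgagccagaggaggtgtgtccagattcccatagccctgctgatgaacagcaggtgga

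Among the motifs searched, the CCAAT box was taken as its 5 letters and the E-box as the letters CACGTG. The sterol regulatory element was spelled TCACNCCAC, where N is any base, and the estrogen-related receptor element TCAAGGTCA. A loose MEF2 pattern was the letters CTA, then any 4 bases, then the letters TAG. Since any base was allowed in the middle, it is looser than the element that MEF2 factors of muscle bind. An NRF1 element was taken as the 10-base palindrome of that name, with no mismatch. Estrogen-related receptor and NRF1 elements are known from genes of oxidative metabolism. No letters of 1 motif overlapped those of another in the 6 promoters. Slc25a4 held CCAAT boxes at bases -112 to -108 and -56 to -52, counted back from the RefSeq start. In GENCODE this gene starts further upstream, at chr8:46211284, so both boxes lie inside its GENCODE bounds. Slc25a13 held an E-box and a CCAAT box, as did Slc25a1, while Slc25a34 held a CCAAT box and Slc25a12 held no match. Slc25a10 matched the loose MEF2 pattern, with only G and C in its middle. A promoter was found for 31 of the 40 members. Some genes have several RefSeq starts, and a gene was counted if the bases before any of its starts held a match. The CCAAT box occurred in 17 of these 31 (54.8%) and in 37.5% of the 27025 genes with a promoter. The E-box occurred in 6 members (19.4%) and in 6.86% of all these genes. The loose MEF2 pattern occurred in 2 (Slc25a10 and Slc25a22, 6.45%) and in 3.7% of all. Both of these matches held G or C in the middle, so they are not called MEF2 sites. The sterol regulatory element was found in Ucp2 alone (3.23% of members, 1.22% of all). The estrogen-related receptor and NRF1 elements were found in no member and in 0.422% and 0.877% of all genes with a promoter. A match is a description of letters, and binding was not measured.

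ADP/ATP exchange made up most of the carrier RNA. Levels were compared between genes as normalized reads per kb of exon, with the length taken as the union of a gene's exons. On that scale the 2 expressed ADP/ATP carriers held 78.3% ± 0.641 (SD, n = 8) of the summed level of the 40 members. Slc25a4 (adenine nucleotide translocator 1, the main form of muscle and heart; chr8:46206797-46211284, minus strand) alone was at 41864 ± 4792 normalized reads per kb. Without division by length, Slc25a4 took 0.262% ± 0.0372 of all reads in Loxp and 0.287% ± 0.0361 in Cre (n = 4 each), and all 40 carriers took 0.412% ± 0.0532 and 0.444% ± 0.0509. By library, Slc25a4 was at 100399, 80778, 105041 and 91792 normalized reads in Loxp 1 to 4 and at 92565, 97505, 119586 and 100392 in Cre 1 to 4. The lowest library was Loxp 2 and the highest Cre 3, and the groups overlapped.

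Slc25a5 (adenine nucleotide translocator 2, the form of dividing and many non-muscle cells; chrX:36795651-36798807, plus strand) was a minor form here. It was at 880.0, 889.7, 843 and 818 normalized reads in Loxp 1 to 4 and at 676, 741, 847 and 885 in Cre 1 to 4. Cre 1 and Cre 2 lay below every Loxp library and the other 2 Cre libraries lay within the Loxp range. Per kb, Slc25a4 exceeded Slc25a5 by 83.8 times, with 63.5 to 98.7 over single libraries; the ratio was 77.2 ± 9.91 in Loxp and 91.5 ± 8.55 in Cre, and the groups overlapped. Part of the Slc25a5 count is uncertain, since 33.8% of its 50-base stretches also occur in 9 other genes, among them pseudogenes such as Gm5560. Slc25a4 shared none. Slc25a31, the testis form, did not reach the minimum.

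**Figure D1:**
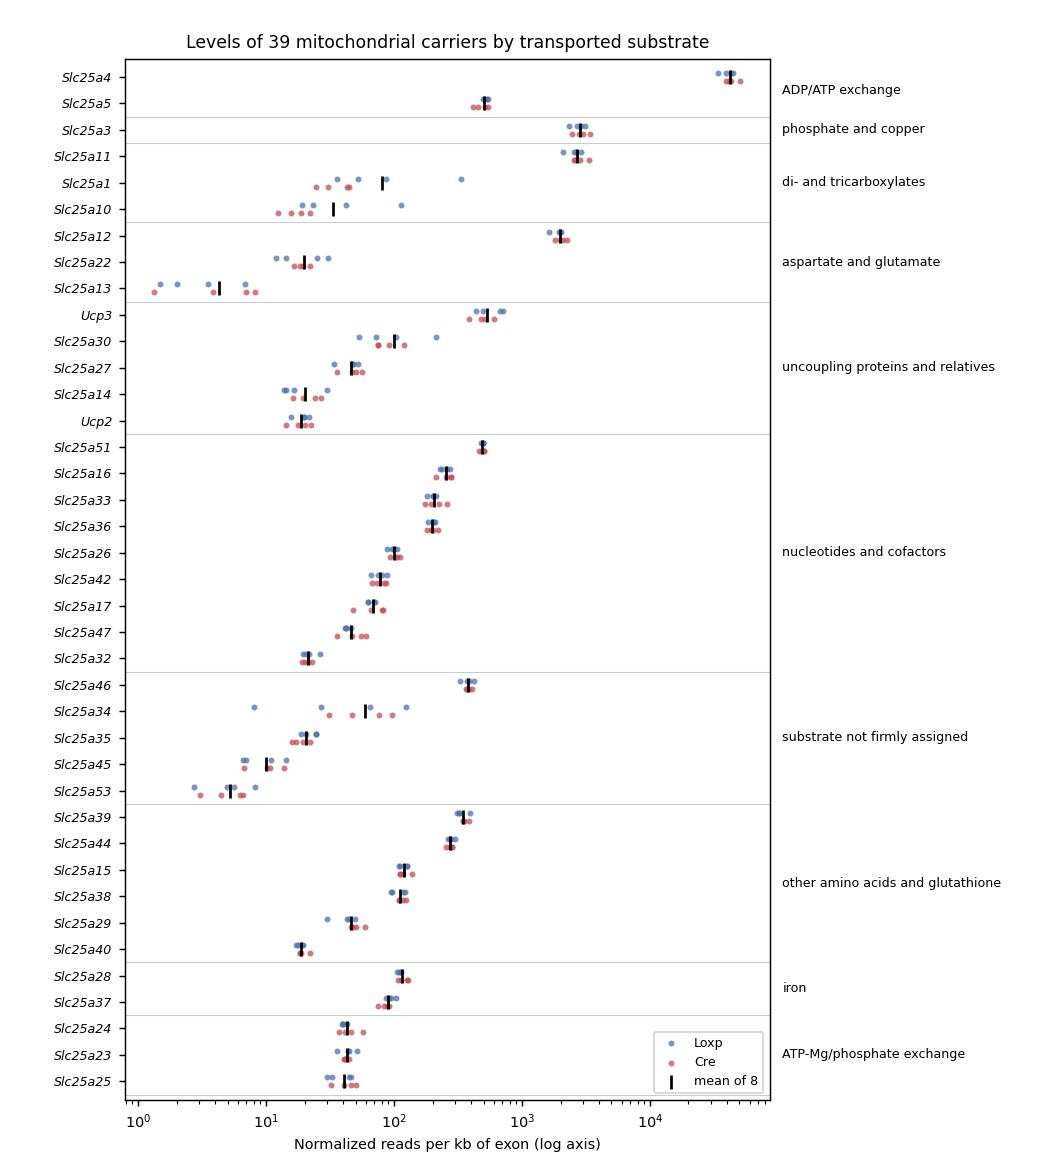
Normalized reads per kb of exon (log axis) for 39 of the 40 carriers, grouped by substrate; points are libraries (blue Loxp, red Cre) and black ticks are means of 8. Slc25a4, at a mean of 41864, stands alone at the right, and Slc25a13, at 4.26, is the lowest.

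The phosphate carrier and the 2 leading carriers of the malate-aspartate shuttle came next. Slc25a3 (phosphate and copper; chr10:91116574-91124059, minus strand) averaged 2835 ± 354 normalized reads per kb (SD, n = 8), or 5.23% ± 0.176 of the family. Slc25a11 (oxoglutarate/malate; chr11:70644196-70647479, minus strand) averaged 2692 ± 363, and Slc25a12 (aspartate/glutamate carrier 1, aralar; chr2:71271063-71367749, minus strand) averaged 1963 ± 190. Slc25a3 exceeded Slc25a11 in 7 of 8 libraries, and Slc25a11 exceeded Slc25a12 in all 8. The means of Slc25a3 and Slc25a11 differ by less than the SD of either over libraries. Both were measured in the same libraries, so that SD does not test their order. Their closeness depends on the length used: per kb of the longest transcript Slc25a3 averaged 3895 and Slc25a11 3335.

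Slc25a3 was at 15959, 12904, 17322 and 14805 normalized reads in Loxp and at 13758, 15417, 19002 and 16697 in Cre. Slc25a11 was at 5609, 4434, 6138 and 5433 in Loxp and at 5373, 5496, 7115 and 6059 in Cre. Slc25a12 was at 14475, 11842, 14720 and 14357 in Loxp and at 13355, 14631, 16637 and 15295 in Cre. All 3 genes, like Slc25a4, were lowest in Loxp 2 and highest in Cre 3, and their groups overlapped.

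Slc25a13 (aspartate/glutamate carrier 2, citrin; chr6:6041218-6217173, minus strand) is the paralog of Slc25a12 known from liver. It was the lowest of the 40 members per kb, with 5 to 37 recovered reads in a library. In normalized reads it was at 26.1, 5.6, 13.4 and 7.58 in Loxp and at 5.05, 14.7, 30.8 and 26.2 in Cre, with both groups covering most of the same range. Slc25a12 exceeded it by 461 times per kb, with 279 to 1368 over libraries, a range that counting error on so few reads widens. Slc25a22 (glutamate carrier 1) was at 71.4 to 181 normalized reads and Slc25a18 (glutamate carrier 2) did not reach the minimum. The aspartate and glutamate carriers together held 3.68% ± 0.135 of the family per kb.

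Of the other di- and tricarboxylate carriers, Slc25a1 exports citrate, from which cytosolic acetyl-CoA for fatty acid synthesis is made, and Slc25a10 exchanges malate or succinate for phosphate. Together with Slc25a11 they held 5.19% ± 0.220 of the family. Slc25a1 (chr16:17925223-17928219, minus strand) was at 114, 717, 187 and 76.8 normalized reads in Loxp and at 65.7, 52.6, 95.9 and 93.5 in Cre. Slc25a10 (chr11:120491840-120499187, plus strand) was at 80.5, 393, 145 and 66.0 in Loxp and at 53.9, 42.8, 65.1 and 75.8 in Cre. Both genes were highest in Loxp 2, then Loxp 3, then Loxp 1, while Loxp 4 lay among the Cre libraries.

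Among uncoupling proteins and their relatives, Ucp3 led. The 5 members held 1.34% ± 0.289 of the family. Ucp3 (chr7:100472990-100486432, plus strand) averaged 536 ± 113 normalized reads per kb and came after those 4, but it exceeded the next gene, Slc25a5, in 4 of 8 libraries, so their order is not resolved. In normalized reads Ucp3 was at 2106, 1556, 2206 and 1359 in Loxp and at 1895, 1603, 1505 and 1216 in Cre. The highest libraries were Loxp 3 and Loxp 1 and the lowest was Cre 4, with overlap between the groups. Its neighbour Ucp2 (chr7:100493337-100502020, plus strand), a form of immune and many other cells, lies 6904 bases away. Ucp2 was at 137, 152, 138 and 109 in Loxp and at 123, 99.0, 140.4 and 157 in Cre, and the Cre range took in the Loxp range. Per kb of the exon union, Ucp3 exceeded Ucp2 by 28.4 times, with 17.3 to 36.1 over libraries. The ratio depends on the length used and was smaller otherwise. Per kb of the longest transcript Ucp3 averaged 687 and Ucp2 33.1, and without division by length they averaged 1681 and 132 normalized reads. Slc25a30, a relative first described in kidney, ranged from 242 normalized reads in Loxp 4 to 971 in Loxp 1, Slc25a27 (Ucp4) from 134 to 219 and Slc25a14 (Ucp5) from 32.5 to 70.4.

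Ucp1, the brown fat form, gave 1 read in Loxp 1, 1 read in Loxp 2 and 0 in the other 6 libraries, where a count of 0 allows up to 3 reads, or 2.12 to 3.67 normalized reads depending on the library. This limit covers counting error only. Of the 5 brown adipocyte markers, 3 passed the minimum and none was called, and Elovl3 was at 0 in all 8 libraries. Their sum ran from 296 to 669 normalized reads in Loxp and from 258 to 351 in Cre, and in every library but Loxp 2 most of it was Ppargc1b, which was at 234 to 351 over all libraries and lowest in Loxp 2. The other 2 were highest in Loxp 2: Slc36a2 was at 323 there and at 6.49 to 96.5 elsewhere, and Cidea at 86.2 against 1.01 to 23.9. The other 9 rows under the minimum were Slc25a2, Slc25a18, Slc25a21, Slc25a31, Slc25a41, Slc25a43, Slc25a48, Slc25a54 and the pseudogene Slc25a5-ps. None of the 10 rows held more than 10 recovered reads in any library.

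The largest class by number was that of nucleotides and cofactors, with 10 members, which held 3.10% ± 0.266 of the family per kb. Slc25a51, which brings NAD into mitochondria (chr4:45395923-45408766, minus strand), led it at 490 ± 15.2 normalized reads per kb. By library Slc25a51 was at 2624, 2726, 2715 and 2746 normalized reads in Loxp and at 2766, 2682, 2789 and 2534 in Cre. It had the narrowest spread of the 40 members, with an SD of 0.0455 on the log2 scale over the 8 libraries. Slc25a16 and Slc25a42, both linked to coenzyme A, averaged 253 and 77.4 per kb, and the peroxisomal carrier Slc25a17 averaged 67.8. The pyrimidine nucleotide carriers Slc25a33 and Slc25a36 averaged 206 and 199 per kb of the exon union. On that length they did not separate, with a ratio of Slc25a36 to Slc25a33 of 0.778 to 1.26 over the libraries. This depends on the length used: per kb of the longest transcript Slc25a36 averaged 366 and Slc25a33 206. Slc25a26 (S-adenosylmethionine) averaged 100.06, Slc25a47 (a liver carrier linked to NAD) 46.2 and Slc25a32 (folate and FAD) 21.4.

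The 6 carriers of other amino acids and glutathione were led by Slc25a39, which carries glutathione, at 347 ± 29.4 normalized reads per kb. It was at 889, 889.7, 1082 and 855 normalized reads in Loxp and at 960.5, 969.5, 955 and 1060 in Cre, so Loxp 3 and Cre 4 were the highest. Its paralog Slc25a40 was lower by 18.5 times per kb, with 15.7 to 20.6 over libraries. The branched-chain amino acid carrier Slc25a44 averaged 276 per kb, the ornithine carrier Slc25a15 119, the glycine carrier Slc25a38 111 and the basic amino acid carrier Slc25a29 46.1. By their GENCODE bounds, Slc25a29 and the NAD-linked Slc25a47 lie head to head on chr12, 162 bases apart. The annotations differ, since Slc25a47 starts at chr12:108836046 in GENCODE but just after chr12:108851128 in RefSeq. A shared promoter was not tested. Slc25a29 was at 111, 77.2, 128 and 116 normalized reads in Loxp and at 119.5, 132, 124 and 153 in Cre, lowest in Loxp 2 and highest in Cre 4.

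Of the mitoferrins, which bring iron in for heme and iron-sulfur clusters, both forms were present at close levels. Slc25a28 (mitoferrin 2, the form of most tissues; chr19:43663801-43674881, minus strand) was at 423, 411, 394 and 419 normalized reads in Loxp and at 423, 483, 475 and 400.2 in Cre. Slc25a37 (mitoferrin 1, high in erythroid cells; chr14:69241848-69285112, minus strand) was at 523, 628, 544 and 572 in Loxp and at 551, 532, 505 and 447 in Cre. The ratio of Slc25a37 to Slc25a28 per kb was 0.769 to 0.952 in Loxp and 0.662 to 0.812 in Cre, so the groups overlapped here too. The summed erythroid markers ran from 1651 to 2606 normalized reads in Loxp and from 1597 to 2520 in Cre.

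The calcium-regulated ATP-Mg/phosphate carriers were a minor class. Slc25a24 was at 136, 148, 134 and 136 normalized reads in Loxp and at 128, 158, 142 and 197 in Cre, with Cre 4 the highest. Per kb, Slc25a24 averaged 42.9, Slc25a23 42.8 and Slc25a25 40.4, and neighbours in this order exceeded each other in 4 or 5 of 8 libraries. This order depends on the length used: per kb of the longest transcript Slc25a25 averaged 83.1, Slc25a23 67.4 and Slc25a24 42.9, and Slc25a25 was also the highest in reads without division by length.

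Of the 5 members with no firm substrate, Slc25a46, an outer-membrane protein that acts in mitochondrial shape, led at 379 ± 29.6 normalized reads per kb. It was at 2104, 1763, 2292 and 2006 normalized reads in Loxp and at 2097, 2010, 2201 and 1962 in Cre. Slc25a35 was at 90.5, 90.7, 75.5 and 69.3 in Loxp and at 71.6, 62.4, 58.2 and 80.7 in Cre; 25.0% of its stretches are shared with other genes, chiefly Rangrf, which overlaps it on the opposite strand. Exons of Slc25a10, Slc25a11, Slc25a23, Slc25a25, Slc25a26, Slc25a33, Slc25a37, Slc25a46 and Ucp2 also overlap a gene on the opposite strand, by 144 to 473 bases. For Slc25a33, 12.6% of stretches are shared with that gene, Gm13068, which touches its comparison with Slc25a36 above. The sources used here do not say whether reads were counted by strand, so reads over these overlaps are uncertain. Slc25a45 ranged from 18.1 to 39.2 normalized reads and Slc25a53 from 21.6 to 64.9.

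Slc25a34 (an orphan related to Slc25a35; chr4:141618824-141623821, minus strand) varied most of all members, with an SD of 1.25 on the log2 scale over the 8 libraries. It was at 71.4, 21.3, 331 and 172 normalized reads in Loxp and at 83.3, 126, 257 and 204 in Cre. Each group spanned low and high libraries.

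None of the 40 carriers was called between Cre and Loxp by limma with Benjamini-Hochberg adjustment over 13638 genes. Over all those genes 0.0147% were called, which is 2 genes, Acot2 and Kbtbd12. The adjusted p was 0.9995 for 39 of the carriers and 0.9997 for Slc25a22. An unadjusted p under 0.05 was found for 2 of 40 carriers, Slc25a10 and Slc25a1, against 2.91% of all genes tested, and for none by limma-voom on the recovered reads. In no carrier were the 4 Cre libraries all above or all below the 4 Loxp libraries, which was so for 1.92% of all genes. The log2 difference, Cre minus Loxp, was above 0 for 26 carriers and below 0 for 14, and 51.7% of all genes were above 0. Its median was 0.030 over the carriers and 0.0049 over all genes. Without Cre 3 the carriers' median was 0.0047, and without Loxp 3 it was 0.077.

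The 95% confidence interval (limma, n = 4 per group) reached a median of 0.264 to either side of the estimate on the log2 scale. It was narrowest for Slc25a51, at 0.118 to either side, and widest for Slc25a34, from -0.85 to 2.15. For 26 of the 40 carriers the whole interval lay within 0.5 of 0. For Slc25a4 the difference was 0.12 (SE 0.11), with an interval from -0.13 to 0.37. The difference was 0.087 (interval -0.15 to 0.33) for Slc25a3 and -0.0062 (-0.12 to 0.11) for Slc25a51. Ucp3 differed by -0.21 (-0.57 to 0.16) and Slc25a46 by 0.023 (-0.15 to 0.20). A p that misses the threshold does not show equal levels.

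**Figure D2:**
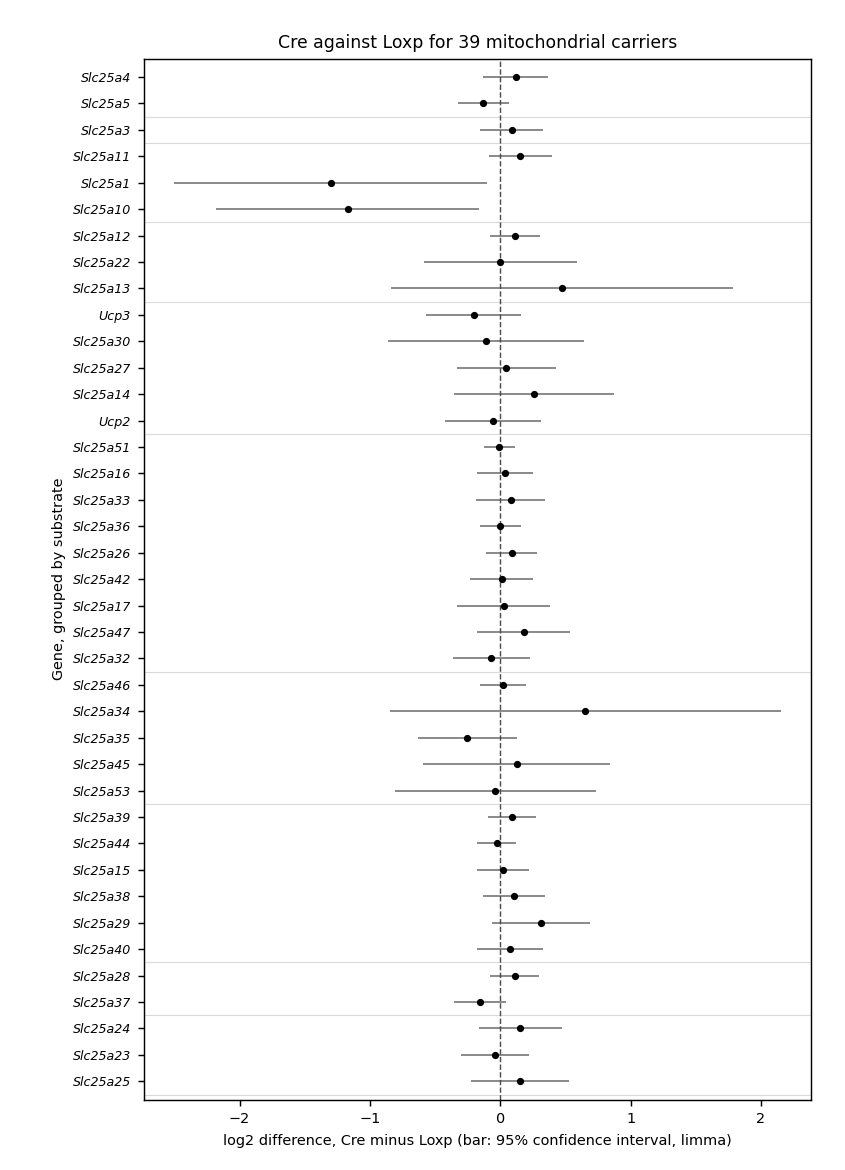
Log2 difference, Cre minus Loxp, for 39 of the 40 carriers, grouped by substrate (points; bars are 95% confidence intervals from limma, 4 libraries a group). The bars of Slc25a1 and Slc25a10 lie below 0 before adjustment for the number of genes, and all other bars cross 0.

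Slc25a10 and Slc25a1 had the smallest p-values. Slc25a10 averaged 171 ± 152 normalized reads in Loxp and 59.4 ± 14.2 in Cre (n = 4 each), a log2 difference of -1.17 (SE 0.46, interval -2.18 to -0.16; limma, adjusted p = 0.9995). All 4 Cre libraries lay below Loxp 1, 2 and 3, and Cre 4 lay above Loxp 4. Slc25a1 averaged 274 ± 299 and 76.9 ± 21.3, a log2 difference of -1.30 (SE 0.55, interval -2.50 to -0.099; limma, adjusted p = 0.9995). Without Loxp 2 each difference was -0.65 (limma, unadjusted p = 0.0466 for Slc25a10 and 0.0566 for Slc25a1), and without Loxp 2 and Loxp 3 each was -0.32. The unadjusted p of both genes was also above 0.05 without Loxp 3, without Cre 1 and without Cre 2.

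Adipocyte markers were also highest in Loxp 2 and Loxp 3, which held the highest and second highest values of both carriers. All 12 markers were highest in Loxp 2 and next highest in Loxp 3, and 7 of the 12 came next in Loxp 1. In Loxp 2, Loxp 3 and Loxp 1, the lipid droplet gene Plin1 was at 1322, 586 and 158 normalized reads, against 41.6 to 109 in the other 5 libraries. The fatty acid synthase gene Fasn was at 21147, 3895 and 1841 in the same 3 libraries and at 1112 to 1604 in the others. All 12 adipocyte markers passed the minimum, and none was called. An unadjusted p under 0.05 (limma) was found for 7 of them, against 2.91% of all genes tested. Since these markers share their highest libraries, the 7 are not separate results. Their sum ran from 2987 to 24960 normalized reads in Loxp and from 2918 to 3976 in Cre. Their part in the differences of Slc25a1 and Slc25a10 was not tested.

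**Figure D3:**
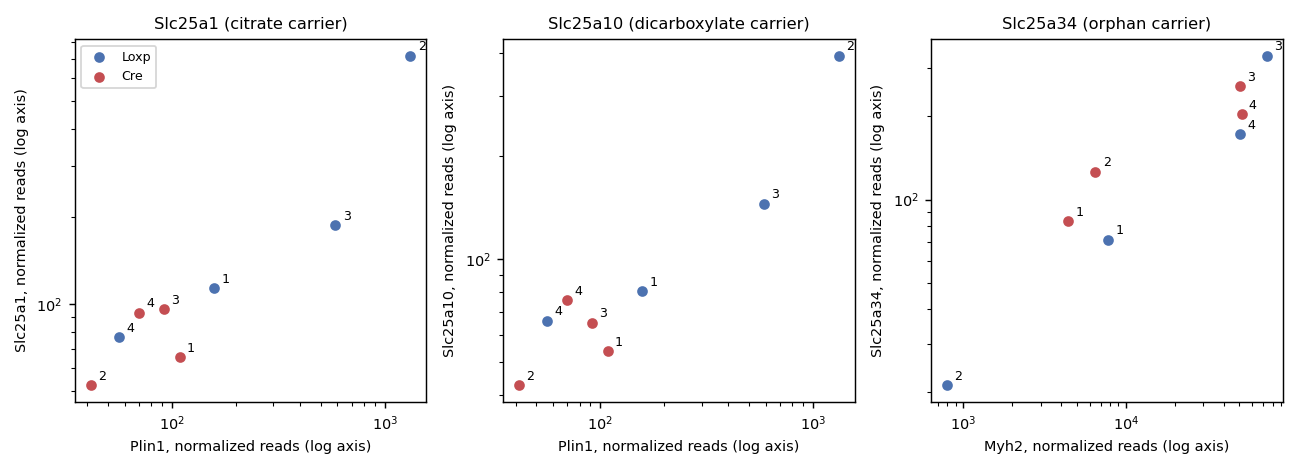
Slc25a1 and Slc25a10 against the adipocyte gene Plin1, and Slc25a34 against the oxidative fibre myosin Myh2, in normalized reads (log axes); each point is a library, numbered by replicate, blue for Loxp and red for Cre. Loxp 2 and Loxp 3 are at the upper right in the first 2 panels, and the 4 libraries with at least 50366 Myh2 reads hold the 4 highest Slc25a34 values.

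After these, the smallest p-values were spread over several substrates. Among carriers higher in Cre, the log2 difference was 0.31 (SE 0.17) for Slc25a29, 0.15 (SE 0.11) for Slc25a11, 0.11 (SE 0.088) for Slc25a12 and 0.11 (SE 0.085) for Slc25a28. Among those lower in Cre it was -0.16 (SE 0.090) for Slc25a37, -0.25 (SE 0.17) for Slc25a35 and -0.13 (SE 0.089) for Slc25a5. Slc25a11 and Slc25a12 came to 0.063 and 0.041 without Loxp 2 and to 0.070 and 0.062 without Cre 3. Slc25a29 came to 0.16 without Loxp 2, Slc25a28 to 0.068 without Cre 2, Slc25a37 to -0.096 without Cre 4 and Slc25a5 to -0.060 without Cre 1.

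The carriers varied between animals about as much as other genes. The SD of the log2 values over 8 libraries had a median of 0.180 for the carriers and 0.175 for all genes tested. It was under 0.2 for 23 carriers and above 0.5 for 6. Those 6 were Slc25a34, Slc25a1, Slc25a10, Slc25a13, Slc25a30 and Slc25a53. Loxp 2 held the highest value for 10 carriers and the lowest for 11, and Cre 3 held the highest for 13 and the lowest for 2. Loxp 4 held the highest for none and the lowest for 7. These counts, and those of SDs under 0.2 and above 0.5, were not made over all genes. They therefore do not show whether the carriers differ from other genes in this.

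**Figure D4:**
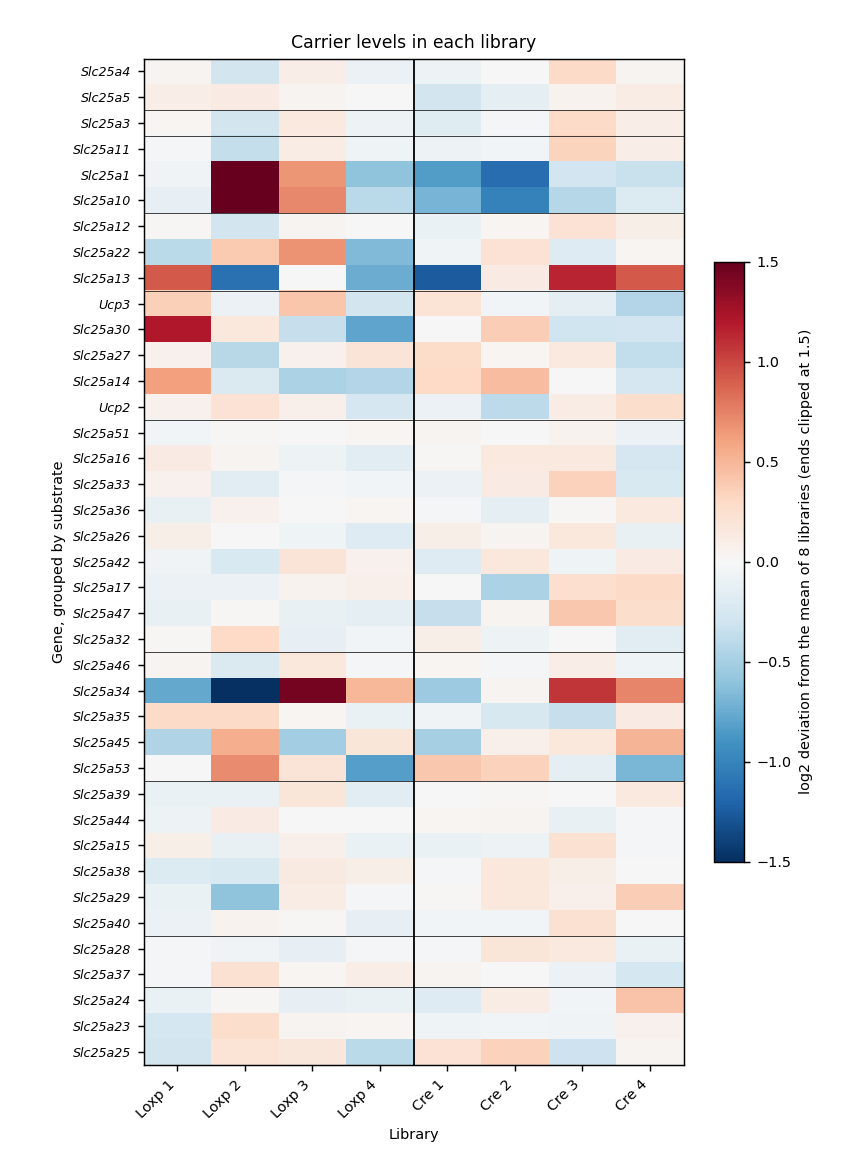
Log2 deviation of 39 carriers from their means over 8 libraries (colour, ends clipped at 1.5), with libraries as columns and carriers as rows grouped by substrate. The column of Loxp 2 holds the strongest colours in both directions, with Slc25a1 and Slc25a10 high and Slc25a34 low.

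Slc25a34 was highest where Myh2 was high, in both genotypes. The 4 libraries with at least 50366 normalized reads of Myh2 (Loxp 3, Cre 4, Cre 3 and Loxp 4) held Slc25a34 at 172 to 331 normalized reads. In the other 4 libraries Slc25a34 was at 21.3 to 126, and Loxp 2 was lowest in both genes. These libraries form 2 clusters in Myh2, so no correlation is given. Slc25a34 differed between the genotypes by 0.65 on the log2 scale (SE 0.68), by 1.24 without Loxp 3 and by -0.061 without Loxp 2. The part of fibre type in these values was not tested. Slc25a13, also above 0.5 in SD, differed by 0.47 (SE 0.60) and came to between 0.17 and 0.97 as each library was left out.

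Genes that work beside the carriers showed no call either. Of 23 other transporters and channels of the mitochondrial membranes, 13 were above 0 and 10 below, with a median log2 difference of 0.024. The smallest p-values there were those of Tspo (-0.28, SE 0.16), an outer-membrane protein, Sfxn1 (-0.71, SE 0.43), a serine carrier, and Vdac3 (0.11, SE 0.074), an outer-membrane pore. Sfxn1 was at 348 normalized reads in Loxp 2 and 157 in Loxp 3, and at 48.9 to 111 in the other libraries. Of the 6 enzymes of the malate-aspartate and glycerol phosphate shuttles, 4 were above 0 and 2 below, with a median of 0.092. Got1, an aspartate aminotransferase, differed by 0.17 (SE 0.23), Mdh2, a malate dehydrogenase, by 0.074 (SE 0.083) and Gpd1 by -0.087 (SE 0.092).

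Among 14 genes of iron-sulfur cluster and heme synthesis, which use the iron and glycine brought in by these carriers, 13 were above 0 and 1 below, with a median of 0.063. Iscu, the scaffold on which clusters are built, had an unadjusted p under 0.05, with a log2 difference of 0.21 (SE 0.089; limma, adjusted p = 0.9995). Nfs1, which supplies the sulfur, differed by 0.11 (SE 0.063) and Ppox, of heme synthesis, by -0.19 (SE 0.14). All 6 genes for cytosolic use of exported citrate were below 0, with a median of -0.41. Over all genes tested, 51.7% were above 0 and 2.91% had an unadjusted p under 0.05 (limma). Fasn differed by -1.501 (SE 0.67), with an unadjusted p under 0.05, Acaca by -0.82 (SE 0.42) and Acly by -0.64 (SE 0.44). Acly, which cleaves citrate, was at 2575 normalized reads in Loxp 2 and at 409 to 604 in the other 7 libraries, where the groups overlapped. Fasn and Acaca were also highest in Loxp 2, at 21147 and 3272 normalized reads. In the other libraries they were at 1112 to 3895 and at 568 to 909. Me1 and Aco1 were highest in Loxp 2 too, and Idh1 in Loxp 3. The part of Loxp 2 in these differences was not tested.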

How the data were processed

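Per the labels' protocols, stranded libraries were prepared from RNA of white quadriceps. Per the submitters' processing notes, the tools included STAR, HTSeq, cutadapt, FastQC and DESeq2, on GRCm38. The deposited values are other than plain counts: they are log2 of (reads divided by a library factor, plus 1), found from the values, and 100% of those below 1000 normalized reads lay within 0.1 of a whole multiple of 1 read. Lengths came from GENCODE M21 (GRCm38), promoters from RefSeq GRCm38.p6.

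Cre and Loxp were compared in limma 3.58.1 under R 4.3.3 (trend, Benjamini-Hochberg adjustment, threshold 0.05, 95% intervals), over genes that reached 10 normalized reads in 4 or more libraries. The fit was also run on simulated data with noise drawn independently for each gene. Such data lack shifts shared by many genes of a library, so they do not show how the fit handles these. Fold differences are on the log2 scale of normalized reads plus 1, which understates changes of low genes. Members and lists were chosen with earlier results of these data known. Values per library are given for the leading gene of each class, 4 paralog pairs, the 4 smallest p-values in each direction and the 4 widest spreads. Other members with values per library or ranges, and the genes set beside them as markers, were picked with those values in view. Libraries of a group differed far beyond counting noise (chi-square per gene 25.8 to 78.6), so each counted as 1 replicate. Alternatives covered pseudocount, filter, scaling, library weights, limma-voom, a block, left-out libraries and gene length. Of the 40 members, 1 is not reported here; counts, medians and shares include it.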

Additional observations from a re-analysis of the deposited data

Results flagged for a closer look

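In each group of 4 libraries, a value was picked out where its gap to the nearest other value exceeded Dixon's 95% critical share of the group's range. Of 80 groups looked at (40 carriers in Loxp and in Cre), 5 held such a value, and chance alone picks out about 1 in 20. Slc25a12, the aspartate/glutamate carrier of the malate-aspartate shuttle, was low in Loxp 2 at 11842 normalized reads, against 14357 to 14720 in the other Loxp libraries. Slc25a39, a glutathione carrier, was high in Loxp 3 at 1082, against 855 to 889.7. Within Cre, Slc25a39 was high in Cre 4 at 1060, against 955 to 969.5. Slc25a23, an ATP-Mg/phosphate carrier, was high in Cre 4 at 237, against 216 to 219. Slc25a40, the other glutathione carrier, was high in Cre 3 at 185, against 153 to 157.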

How the results depend on the processing

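Over 19 alternatives no carrier was called. The number of carriers with an unadjusted p under 0.05 was 0 to 3, and the smallest adjusted p of a carrier was 0.900 (no filter) to 1 (quantile normalization). The median log2 difference stayed above 0, from 0.0047 without Cre 3 to 0.077 without Loxp 3. Of 14 carriers named for their difference, 12 kept their sign in every alternative that tested them; Slc25a34 came to -0.061 without Loxp replicate 2, and Slc25a3 to -0.058 without Cre replicates 3 and 4. Leaving out a library moved several small differences by over 1.5 times. Slc25a4 came to 0.045 without Loxp 2 and 0.041 without Cre 3. Slc25a3 came to 0.010, 0.0079 and 0.16 without Loxp 2, Cre 3 and Cre 1. Ucp3 came to -0.12, -0.10, -0.33 and -0.093 without Loxp 1, Loxp 3, Loxp 4 and Cre 4. Slc25a34 came to 1.24 without Loxp 3 and 0.41 without Cre 3. The causes of these moves were not tested.

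With a replicate block for adjacent animal numbers, 0 carriers were called and 2 had an unadjusted p under 0.05, and the smallest adjusted p was 0.995. The labels state no pairing, and 2 of 4 animals correlated best with their neighbour in number (correlations 0.151, -0.0835, 0.188 and -0.0812). The ADP/ATP share was 77.1% with the length of the longest transcript and 64.5% with no division by length. Under the same settings the phosphate share was 5.79% and 10.2%, and the aspartate and glutamate share 3.42% and 9.47%. With no division by length the di- and tricarboxylate share was 3.90% and the uncoupling share 1.64%. The nucleotide and cofactor share was 3.67% with the length of the longest transcript and 5.53% with no division by length. It thus passed the aspartate and glutamate share in the former setting and the di- and tricarboxylate share in the latter. The order of these substrates therefore depends on the length used. The low levels of Slc25a13, Slc25a53, Slc25a45 and Ucp1 are limited by depth.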
